A study of Mus musculus with 10 samples.

Results

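The thrombospondins are a family of secreted glycoproteins encoded in the mouse by 5 genes, Thbs1, Thbs2, Thbs3, Thbs4 and Comp, the last being the gene of cartilage oligomeric matrix protein. These genes were taken by name from the gene tables of the left ventricle (LV) libraries, and all 5 of them were found among the 55401 genes listed. RNA sequencing had been performed on the LV of mice with neonatal ascending aorta constriction (nAAC), a model of pressure overload in the young heart, and of sham-operated mice. Both groups were wild-type C57BL/6 mice operated on shortly after birth and sampled at 4 weeks of age, with 5 mice per group and 1 library per mouse. Each library is a bulk LV sample, so the values below average over all cells of the tissue. The question addressed was whether the 5 genes of this family respond alike or differently to nAAC.

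Thrombospondins sit in the extracellular matrix without being its main structural fibres and link collagens, growth factors, proteases and cell surface receptors. Thbs1 and Thbs2 form trimers and carry the type 1 repeats that bind the receptor CD36, and Thbs1 is known as an activator of latent TGF-beta. Thbs3, Thbs4 and Comp form pentamers that lack these repeats. Thbs4 and Comp are best known from tendon, cartilage and muscle, and Thbs4 also binds the endoplasmic reticulum (ER) stress sensor ATF6 inside cells. Thrombospondins of the heart are known to be induced by injury and by pressure load.

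All 5 genes share a carboxy-terminal part, and the stretch below shows how alike and how separable their transcripts are. Sequences were taken from the GENCODE M21 protein-coding transcripts of GRCm38. Each line is the same 90-base window of the alignment of the coding sequences, 5′ to 3′ on the gene's own strand, and capitals mark the 58 positions that are identical in all 5 genes.
Thbs1: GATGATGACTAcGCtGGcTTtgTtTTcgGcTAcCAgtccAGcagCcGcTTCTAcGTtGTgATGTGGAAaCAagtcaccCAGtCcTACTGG
Thbs2: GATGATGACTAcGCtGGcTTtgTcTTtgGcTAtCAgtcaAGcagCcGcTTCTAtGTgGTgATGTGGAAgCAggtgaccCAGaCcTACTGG
Thbs3: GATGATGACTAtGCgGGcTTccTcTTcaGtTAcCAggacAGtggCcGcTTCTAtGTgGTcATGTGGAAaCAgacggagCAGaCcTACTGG
Thbs4: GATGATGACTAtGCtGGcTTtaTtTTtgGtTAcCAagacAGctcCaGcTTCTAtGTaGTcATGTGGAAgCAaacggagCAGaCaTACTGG
Comp: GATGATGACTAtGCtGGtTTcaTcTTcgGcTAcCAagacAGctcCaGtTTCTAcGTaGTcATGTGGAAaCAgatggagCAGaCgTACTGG
This is the most conserved window of that length, with 64.4% of its positions identical in all 5 genes. Over the 2036 alignment columns without a gap, 38.9% were identical in all 5. Between pairs of genes, the identity of aligned coding bases ran from 63.9% for Thbs2 and Thbs3 to 71.8% for Thbs4 and Comp. The longest run of identical bases in any pair was 26 bases, so a read of 50 bases could not belong to 2 members without a mismatch. No 50-base stretch of Thbs2, Thbs4 or Comp occurred in any other annotated gene. In Thbs1, 1.62% of these stretches also belonged to Gm29233, an antisense gene inside Thbs1 that was listed at 0 in all 10 libraries. In Thbs3, 4.36% also belonged to the antisense gene Mtx1.

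The members lie on 5 chromosomes of GRCm38. Thbs1 (ENSMUSG00000040152) is at chr2:118111876-118127133 on the plus strand, and Thbs2 (ENSMUSG00000023885) at chr17:14665500-14694235 on the minus strand. Thbs3 (ENSMUSG00000028047) is at chr3:89215180-89226837 on the plus strand. Thbs4 (ENSMUSG00000021702) is at chr13:92751590-92794818 on the minus strand, and Comp (ENSMUSG00000031849) at chr8:70373558-70382066 on the plus strand. Their proteins are encoded by 1171, 1172, 956, 963 and 755 codons in that order. Comp is the shortest, with 19 exons, where the others have 22 or 23.

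Expression was read as FPKM (fragments per kilobase of transcript, scaled to the mapped fragments of the library), which is a level per transcript length. Levels of different genes are compared on this measure unless stated, and its ratio to coverage in reads per base differed between genes. Estimated depth was 4.86 to 6.82 gigabases in the nAAC libraries and 5.06 to 5.24 in the sham libraries. Cardiomyocyte markers were abundant in every library, with a summed FPKM over 9 genes of 13295 to 20669 in nAAC and 16464 to 27557 in sham mice. The library of sham mouse 4 stood apart from the rest on the second principal component. The libraries of the groups also differed in general level: the median log2 fold change (log2 FC) of all genes tested was 0.22, and the mitochondrial share of TPM was 36.1% ± 2.60 in nAAC and 43.4% ± 7.05 in sham mice (SD, n = 5 each). The values below are therefore also given as shares within the family, which do not depend on how libraries are scaled.

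The test, limma on log2(FPKM + 1), took in the 11867 genes whose FPKM averaged 1 or more, all 5 members among them. The log2 FC is nAAC minus sham on that scale and understates the change of genes at low levels. A gene was called when its adjusted p was below 0.05 and its absolute log2 FC above 1. By this rule 4 of the 5 members were called, all higher in nAAC. Of all genes tested 5.91% were called, 5.01% as higher and 0.893% as lower. The fifth, Thbs2, was lower in nAAC with an adjusted p below 0.05 but a log2 FC short of the limit. The adjusted p alone was passed by 31.7% of all genes tested, 27.1% as higher and 4.6% as lower. The nAAC mice lay wholly above the sham mice in 4 of the 5 members, against 18.9% of all genes tested, and for 22.3% the groups did not overlap in either direction. The filter averages both groups, so a gene low in 1 group could be tested through the other. Thbs4 and Comp, with sham means of 0.929 and 0.901 FPKM, were tested through the nAAC mice. Genes that entered in this way add to the counts called higher, here and in the lists below.

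**Figure D1:**
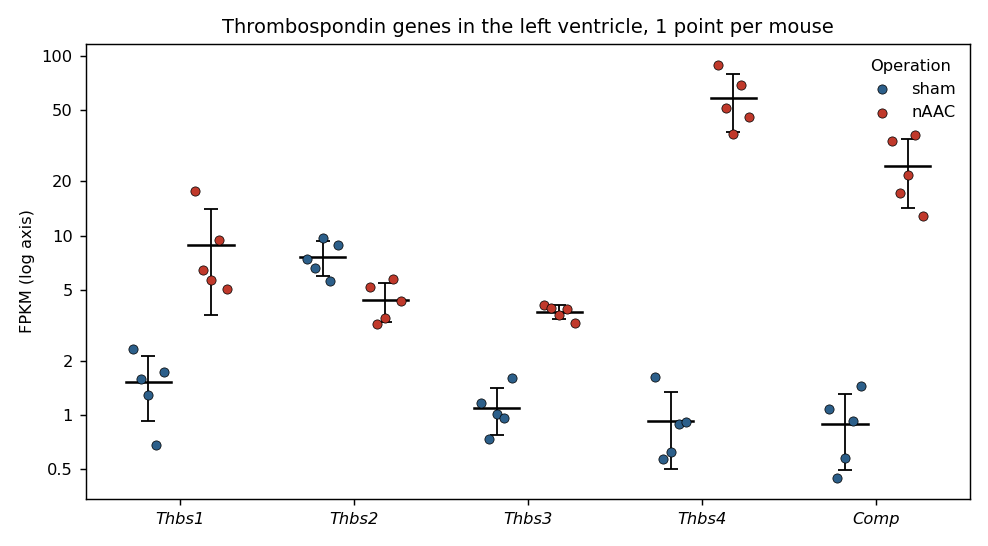
FPKM of the 5 thrombospondin genes on a log axis, with 1 point per mouse, horizontal bars at the mean and whiskers of 1 SD (n = 5 per group). The nAAC mice lie above the sham mice for Thbs1, Thbs3, Thbs4 and Comp, while Thbs2 runs the other way and its groups meet at 5.61 and 5.70.

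Thbs4, a matrix protein of tendon and muscle, showed the largest difference of the family. Its FPKM was 1.63, 0.572, 0.624, 0.899 and 0.918 in sham mice 1 to 5, a mean of 0.929 ± 0.423. In nAAC mice 1 to 5 it was 89.2, 51.5, 36.7, 69.1 and 45.5, a mean of 58.4 ± 20.9 (SD, n = 5). The groups were far apart, with the lowest nAAC mouse 22.5 times above the highest sham mouse and a ratio of means of 62.9. The log2 FC of 4.90 (SE 0.22, limma, adjusted p = 2.19e-08) ranked 5 from the top among the 11867 genes. In the sham mice the gene was covered by only a few reads per base, the lowest being 2.69, so the size of the ratio rests on a small denominator. As these are bulk samples, more cells of a type that makes Thbs4 and more Thbs4 RNA per cell cannot be told apart, and this holds for every gene below.

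Comp, the pentameric protein of cartilage and tendon that binds collagens, followed the same pattern. Its FPKM was 1.09, 0.447, 0.580, 0.928 and 1.46 in sham mice 1 to 5, a mean of 0.901 ± 0.405. In nAAC mice 1 to 5 it was 33.6, 17.2, 21.8, 36.4 and 12.9, a mean of 24.4 ± 10.2 (SD, n = 5). The lowest nAAC mouse lay 8.85 times above the highest sham mouse, so these groups were also far apart, and the ratio of means was 27.1. The log2 FC was 3.67 (SE 0.25, limma, adjusted p = 5.33e-07), which ranked 14 from the top. In sham mice Thbs4 and Comp were at like levels, and 3 of the 5 mice had more Thbs4 than Comp. In nAAC mice Thbs4 exceeded Comp in all 5.

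Thbs1, the activator of TGF-beta that is also stored in platelets, rose less. Its FPKM was 2.33, 1.59, 1.30, 0.684 and 1.74 in sham mice 1 to 5, a mean of 1.53 ± 0.604. In nAAC mice 1 to 5 it was 17.6, 6.41, 5.62, 9.39 and 5.03, a mean of 8.81 ± 5.18 (SD, n = 5). The nAAC mice did not overlap the sham mice, and nAAC mouse 1 held the highest value by a wide margin. The log2 FC was 1.86 (SE 0.28, limma, adjusted p = 0.000287) and was 1.59 without that mouse. The ratio of means was 5.76.

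Thbs3, a pentameric member expressed in skeleton and heart, also rose and varied least among the nAAC mice. Its FPKM was 1.18, 0.743, 1.02, 0.963 and 1.61 in sham mice 1 to 5, a mean of 1.10 ± 0.324. In nAAC mice 1 to 5 it was 4.09, 3.93, 3.62, 3.90 and 3.25, a mean of 3.76 ± 0.330 (SD, n = 5). The groups did not overlap, and the nAAC mice had a coefficient of variation of 8.77%, against 24.5% to 58.9% for the other members. The log2 FC was 1.19 (SE 0.12, limma, adjusted p = 1.03e-05) and the ratio of means was 3.41. The log2 FC fell under 1 in 3 of 21 alternatives, among them upper-quartile scaling (0.97), where the adjusted p stayed below 0.05.

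Thbs3 shares its locus with Mtx1, a gene of the mitochondrial outer membrane import machinery on the opposite strand at chr3:89209081-89227088. Of the 18 annotated Mtx1 transcripts, 1 overlaps Thbs3 exons, over 318 of 4823 exonic bases. The FPKM of Mtx1 was 7.04 to 12.1 in nAAC and 5.21 to 9.92 in sham mice (n = 5 each), with a log2 FC of 0.40 that did not pass the test (limma, adjusted p = 0.0981). Whether the quantification used strand is not given in the sources used here, so reads from the shared bases cannot be assigned to 1 of the genes with certainty.

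Thbs2, the other trimeric member, binds the same receptors as Thbs1 and takes part in the assembly of collagen fibrils. It was the only member lower in nAAC. Its FPKM was 7.43, 6.58, 9.69, 5.61 and 8.85 in sham mice 1 to 5, a mean of 7.63 ± 1.66. In nAAC mice 1 to 5 it was 5.18, 3.21, 3.46, 5.70 and 4.31, a mean of 4.37 ± 1.07 (SD, n = 5). The groups touched only where nAAC mouse 4, at 5.70, passed sham mouse 4, at 5.61. The level fell by 0.69 on the log2 scale (log2 FC -0.69, SE 0.17, limma, adjusted p = 0.00722). An exact permutation test of log2(FPKM + 1) gave a two-sided p of 0.0159. The sham mean was 1.75 times the nAAC mean. The log2 FC lay between -0.97 and -0.57 over 21 alternatives, with adjusted p values of 0.000154 to 0.0319, and was called in 0 of them. It was -0.78 without sham mouse 4, the library that stood apart.

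**Figure D2:**
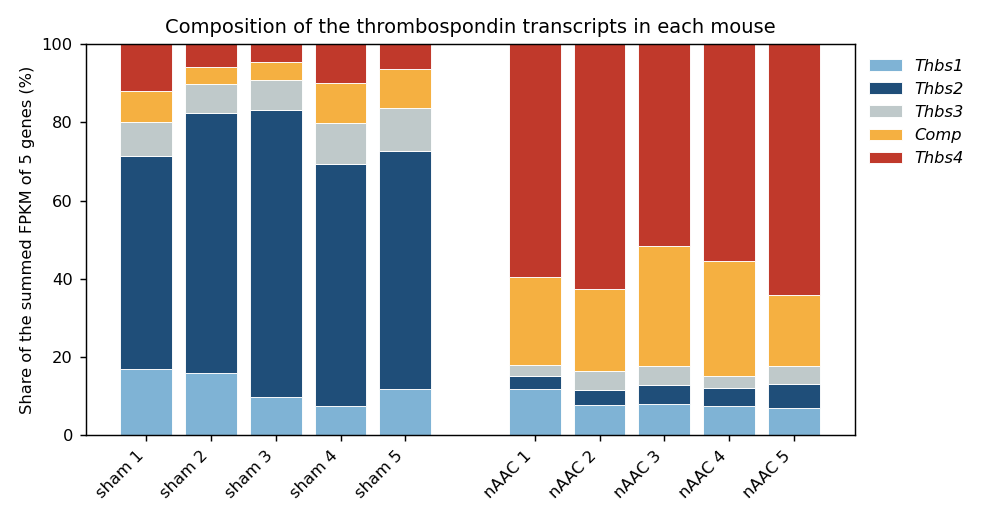
Share of each gene in the summed FPKM of the 5 thrombospondins, in percent, with 1 stacked bar per mouse. Thbs2 makes up 54.4% to 73.4% of every sham bar, and Thbs4 51.5% to 64.1% of every nAAC bar.

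The composition of the family turned over between the groups. The summed FPKM of the 5 genes was 12.1 ± 2.43 in sham mice, from 9.08 to 14.6, and 99.7 ± 35.5 in nAAC mice, from 71.0 to 149.6 (SD, n = 5 each). In sham mice Thbs2 held 63.3% ± 7.05 of this sum, followed by Thbs1 with 12.5%, Thbs3 with 9.09%, Thbs4 with 7.73% and Comp with 7.42%. In nAAC mice Thbs4 held 58.7% ± 5.15 and Comp 24.3% ± 5.39, while Thbs1 held 8.41%, Thbs2 4.57% and Thbs3 4.06%. The share of Thbs2 thus went from more than that of all other members together to 3.46% to 6.07% in single nAAC mice, as the plot of shares shows.

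The order of the levels differed likewise. By mean FPKM the order in sham mice was Thbs2, Thbs1, Thbs3, Thbs4 and Comp. Only the step from Thbs2 to Thbs1 separated all mice. The other neighbours had overlapping ranges, with the order of Thbs4 and Comp holding in 3 of 5 mice. In sham mouse 4 the coverage was 4.47 for Thbs4 and 2.88 for Thbs3, the reverse of their order by FPKM. In nAAC mice the order was Thbs4, Comp, Thbs1, Thbs2 and Thbs3. The ranges of Thbs4 and Comp did not overlap there. Comp exceeded Thbs1, and Thbs1 exceeded Thbs2, in all 5 nAAC mice although their ranges overlapped. Thbs2 exceeded Thbs3 in 3 of 5 nAAC mice, so their order was not settled.

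The members were then compared with each other within each mouse, as the log2 ratio of 2 genes on the FPKM + 1 scale, which makes 10 pairs. The ratio differed between nAAC and sham mice in 9 of the 10 pairs, each with p = 0.00794 by a two-sided exact permutation test, the smallest p that 5 against 5 mice allow, and 0.00882 after Benjamini-Hochberg adjustment over the 10 pairs. The largest difference was that of Thbs2 to Thbs4, whose log2 ratio went from 2.17 ± 0.426 in sham to -3.42 ± 0.335 in nAAC mice (SD, n = 5). Thbs1 and Thbs2, the trimeric members, parted by 2.54, with log2 ratios of -1.78 ± 0.347 in sham and 0.76 ± 0.518 in nAAC mice. Thbs4 and Comp, which rose most, also parted, by 1.23, from 0.02 ± 0.252 in sham to 1.26 ± 0.426 in nAAC mice. Thbs2 and Comp parted by -4.35 and Thbs2 and Thbs3 by -1.88.

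Only Thbs1 and Thbs3 were not told apart. Their log2 ratio was 0.24 ± 0.352 in sham mice, from -0.22 to 0.61, and 0.91 ± 0.585 in nAAC mice, from 0.51 to 1.87. The difference of 0.67 gave a two-sided p of 0.0714 by the exact permutation test, and 0.0714 after adjustment over the 10 pairs, with n = 5 per group. It ranged from 0.43 to 0.77 when 1 mouse was left out, and the test gave 0.0476 after adjustment without sham mouse 1.

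**Figure D3:**
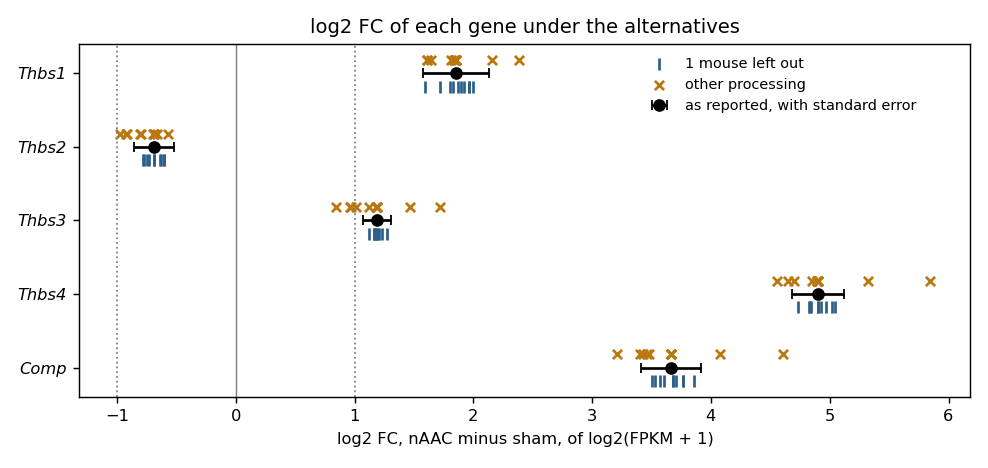
log2 FC of each gene, nAAC minus sham. Circles with whiskers are the reported value and its standard error, ticks leave out 1 mouse at a time and crosses are other ways of processing. Dotted lines mark -1 and 1. Thbs4 stays between 4.55 and 5.84, Comp between 3.21 and 4.61 and Thbs1 between 1.59 and 2.38, while Thbs3 runs from 0.85 to 1.72 and crosses the limit.

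Promoter sequence was at hand for 3 of the 5 members, in the RefSeq table for GRCm38.p6, covering Thbs2, Thbs3 and Thbs4. The 250 bases before the start are shown for Thbs4 and Thbs2, the members that moved most in each direction. Both are printed 5′ to 3′ on the gene's strand, which is the minus strand, and capitals mark matches on either strand to any of 5 short motifs. These were GCGTG as the core of the element bound by the aryl hydrocarbon receptor, TGANTCA as the site known for AP-1 factors, and GGGCGG as the box known for the factor SP1. CAGAC was searched as the element known for SMAD factors, and TATAAA as the usual box of basal transcription. The matches do not overlap each other.
Thbs4 (chr13:92794819-92795068): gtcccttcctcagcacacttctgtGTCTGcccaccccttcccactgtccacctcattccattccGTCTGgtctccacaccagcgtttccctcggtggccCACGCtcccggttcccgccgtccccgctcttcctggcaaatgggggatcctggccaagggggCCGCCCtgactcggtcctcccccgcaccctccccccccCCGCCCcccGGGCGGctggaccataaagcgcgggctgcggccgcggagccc
Thbs2 (chr17:14694263-14694512): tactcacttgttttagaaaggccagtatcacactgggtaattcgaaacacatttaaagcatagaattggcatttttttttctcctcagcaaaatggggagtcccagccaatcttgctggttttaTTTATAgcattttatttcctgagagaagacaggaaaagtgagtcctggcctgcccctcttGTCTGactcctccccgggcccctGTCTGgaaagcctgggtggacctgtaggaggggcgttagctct
The promoter of Thbs4 was rich in G and C (70.8%) and that of Thbs2 was not (46.8%), with 58.8% in Thbs3 and a median of 52.4% over 32851 promoters. Thbs4 held 3 matches to the SP1 letters, 2 to SMAD and 1 to the aryl hydrocarbon receptor core, which lay 151 bases before the start. Thbs2 held 2 SMAD matches and 1 TATA match, which lay 126 bases before the start, and Thbs3 held 1 SP1 match. The AP-1 letters were in none of the 3 windows. Of all promoters, 32.7% held the SP1 letters, 42.2% SMAD, 28.2% the receptor core, 12.4% TATA and 6.75% AP-1. The SRF box, searched in a loose form with any 6 bases between CC and GG and not capitalised, matched 3 times in Thbs4, 2 times in Thbs2 and 0 times in Thbs3, and was in 67.1% of promoters. A match of letters is not evidence of binding.

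Genes whose products work with thrombospondins were examined as lists, each described by its counts beside the 5.01% of all genes called higher and the median log2 FC of 0.22.

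The extracellular partners were mostly higher in nAAC. Of 17 collagens and other matrix ligands, 10 were tested, 9 were called higher and the median log2 FC was 1.94. With the filter at a mean FPKM of 0.1, 13 were tested and 9 were called, with a median of 1.84. Postn (periostin, log2 FC 3.78, limma, adjusted p = 7.53e-07) and Col1a1 (collagen I, 2.09, 7.89e-07) led, followed by Fn1 (fibronectin, 2.01) and Col1a2, which went from 18.6 ± 3.49 to 78.5 ± 20.5 FPKM. Dcn (decorin), the most abundant of the list, went from 295.8 ± 6.97 to 420.8 ± 96.8 FPKM (log2 FC 0.47, adjusted p = 0.0459) and was not called. Of 10 other matricellular genes, which like thrombospondins act on cells from the matrix, 8 were tested and 7 were called higher, with a median of 1.82. With the lower filter 10 were tested and 7 were called, with a median of 1.51. They included Ccn2 (3.80), Postn (3.78), Ccn5 (3.62), Spp1 (osteopontin, 1.91) and the most abundant, Sparc (1.31). Thbs2 thus differed in sign from each of the 7 called genes of this list. Of 25 other genes with type 1 repeats, the module of Thbs1 and Thbs2, 10 were tested and 2 were called higher, Adamtsl2 (2.89) and Adamtsl5 (1.97), with a list median of 0.29.

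Receptors, growth factors and proteases were mixed. Of 15 receptors and cell surface partners, 12 were tested and 2 were called higher, namely Lrp1 (1.69, limma, adjusted p = 2.63e-06), the endocytic receptor that clears thrombospondins, and Itgb5 (1.10), an integrin chain. Cd36, the receptor of the type 1 repeats and the most abundant of the list, was lower in nAAC, at 334.8 ± 59.9 against 483.4 ± 58.5 FPKM (log2 FC -0.54, adjusted p = 0.0211). No receptor passed the adjusted p as lower with TPM, without nAAC mouse 2 or 3 or without sham mouse 3, so the pass of Cd36 was lost there. By the adjusted p alone 6 receptors were higher and 1 was lower, against 3211 higher and 546 lower among all genes tested. After median-ratio scaling, which rescales all genes of a library by a common factor, 3 were higher and 3 lower. Among all genes 1540 were higher and 1432 lower there. Of 11 growth factor and protease ligands, 7 were tested and 4 were called higher. These were Tgfb2 (2.17), Tgfb3 (1.34), Mmp2 (1.21) and Tgfb1 (1.01), the first with an adjusted p of 5.13e-07, and 2 genes of the list were called after median-ratio scaling. The most abundant, Vegfa, had a log2 FC of 0.56 and was not called. Of 6 proteases known to cleave thrombospondins, 3 were tested. Adamts1 was called higher (1.11), while Htra1, the most abundant (-0.40, adjusted p = 0.0499), and Adamts7 (-0.96, adjusted p = 0.000107) were lower without being called. With median-ratio or upper-quartile scaling, or with length and GC trends removed, 1 gene of the list was called, as lower. Adamts7, which cleaves Comp, was named after its value was seen.

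Of 18 ATF6 and ER folding genes, 17 were tested and none was called in either direction by limma, while 13 had an unadjusted p below 0.05, which 43.4% of all genes tested had. By the adjusted p alone 9 were higher and 1 lower, with a median log2 FC of 0.50. The 1 lower gene was Herpud1 (-0.61, adjusted p = 0.00933), an ER stress response gene named after its value was seen. Hspa5, the most abundant and a main ATF6 target, had 97.4 ± 15.4 FPKM in nAAC and 87.2 ± 23.9 in sham mice (log2 FC 0.19, adjusted p = 0.452). After median-ratio scaling 2 genes of the list were higher and 1 was lower, and the medians were 0.22 for the list and -0.00 for all genes, against 0.50 and 0.22 before.

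**Figure D4:**
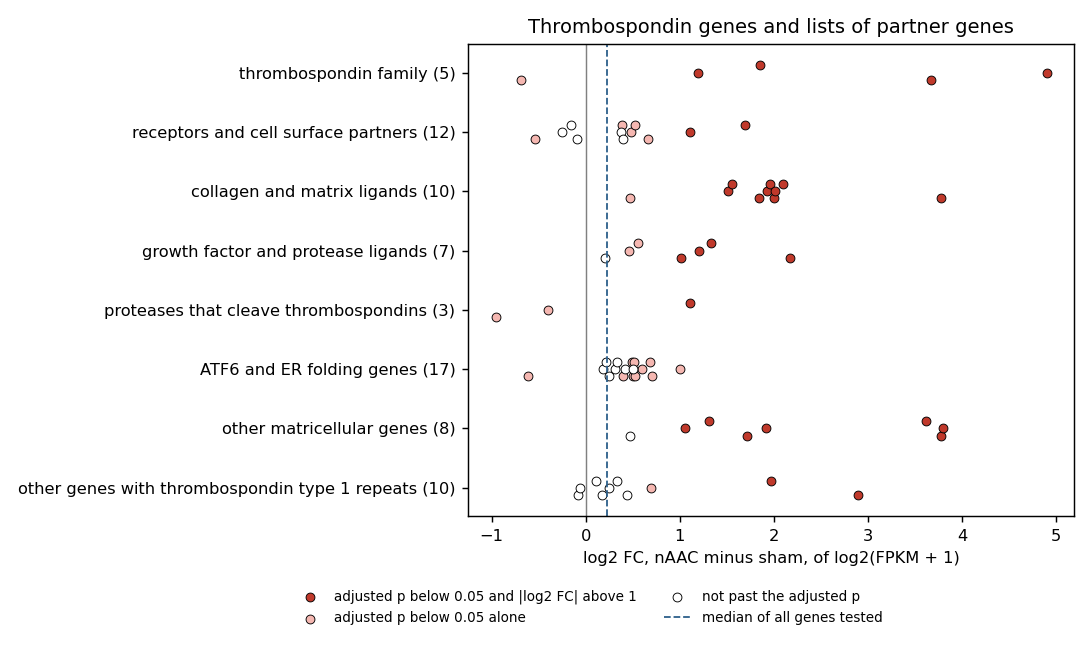
log2 FC, nAAC minus sham, of each tested gene of the thrombospondin family and of 7 partner lists, with the number tested in parentheses. Dark points were called, pale points passed the adjusted p alone and open points did not pass, and the dashed line is the median of all genes tested, 0.22. Thbs4 is the rightmost point of the plot and Thbs2 one of the few left of 0.

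Markers of cells that make thrombospondins were read beside these results. The tendon and cartilage list, cells in which Thbs4 and Comp are abundant, had a summed FPKM over 8 genes of 21.1 to 39.3 in nAAC and 3.13 to 8.74 in sham mice. Of its 4 tested genes, 3 were called higher, namely Scx (scleraxis, 2.06, limma, adjusted p = 0.000223), Fmod (fibromodulin, 1.87) and Sox9 (1.32). The fourth, Chad, had a log2 FC of 0.72 (limma, adjusted p = 0.106). Sox9 and Chad averaged 0.377 and 0.516 FPKM in sham mice, so both passed the filter through the nAAC mice. With the filter at a mean FPKM of 0.1, 6 genes were tested and 4 were called. Tnmd (tenomodulin), a defining tendon marker, was listed at 0 in all sham mice and at 0.807 to 1.92 FPKM in nAAC mice. The defining markers Mkx, Acan and Col2a1 were below 1 FPKM in every library. Under the main filter these genes were not tested, and they and Chad are named outside the rule for named genes. The list was thus higher in nAAC mice, as Thbs4 and Comp were. Within the nAAC group its summed FPKM was 25.6, 27.0, 37.4, 39.3 and 21.1 in mice 1 to 5. Comp was likewise highest in mouse 4 and lowest in mouse 5, whereas Thbs4 was highest in mouse 1 and lowest in mouse 3. The part of the list in the difference of either gene was not tested.

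Of 6 fibroblast markers, none was called by limma, 4 had an unadjusted p below 0.05 and 3 passed the adjusted p alone, all higher. Of all genes tested, 43.4% had such an unadjusted p and 31.7% passed the adjusted p. With median-ratio or upper-quartile scaling, the Xist covariate or the filter at 0.1, 1 of the 6 passed, and with TPM 4 did. The summed FPKM of the list was 855 to 1264 in nAAC and 621 to 883 in sham mice. The most abundant, Gsn, had a log2 FC of 0.49 (adjusted p = 0.0882). Of 6 smooth muscle and pericyte markers, 3 were called higher, namely Tagln (1.54), Myh11 (1.25) and Cnn1 (1.17), while the most abundant, Rgs5, had -0.00, and the summed FPKM was 252 to 372 against 161 to 270. With upper-quartile scaling or with length and GC trends removed 1 of them was called, and over all alternatives 1 to 4 were. The part of either list in the differences of the thrombospondins was not tested.

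Platelets carry Thbs1 protein. Of 8 platelet markers 6 were below 1 FPKM in every library, and the summed FPKM was 15.2 to 26.4 in nAAC and 12.6 to 21.6 in sham mice. Most of it was Pf4, the only one tested (log2 FC 0.29, limma, adjusted p = 0.298), and the part of platelets in the difference of Thbs1 was not tested. Atrial markers varied widely, with a summed FPKM of 2.71, 134.3, 227.0, 28.3 and 2.03 in nAAC mice 1 to 5 and of 3.05 to 44.7 in sham mice. The part of atrial tissue in the differences of the thrombospondins was not tested.

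Few of the remaining markers were called. Their counts stand beside the shares of all genes tested, of which 31.7% passed the adjusted p alone and 43.4% had an unadjusted p below 0.05. Of 7 endothelial markers none was called by limma, 1 passed the adjusted p alone and 3 had an unadjusted p below 0.05, with the most abundant, Egfl7, at a log2 FC of 0.45. Of 6 macrophage and leukocyte markers 1 was called, C1qa (1.20), and none after median-ratio or upper-quartile scaling, with the Xist covariate or with length and GC trends removed, while the most abundant, Lyz2, had 0.31. Of 9 cardiomyocyte markers none was called, with 1 higher and 3 lower by the adjusted p alone and 4 with an unadjusted p below 0.05, and after median-ratio scaling 3 were called lower. The highest of them, Actc1, had a log2 FC of 0.60. None of 4 epicardial, 5 erythroid or 3 tested atrial markers passed limma's adjusted p, and 1 epicardial marker had an unadjusted p below 0.05, with Msln at a log2 FC of 0.59, Hbb-bs at 0.02 and Myl4 at 1.32 (adjusted p = 0.334). Of 5 skeletal muscle markers only Myl1 was tested, at 0.68 without being called, and Myh1, Myh4 and Actn3 were below 1 FPKM in every library.

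For each called member, the 3 tested genes with the most similar profile were found, by the root mean square (RMS) difference of their log2(FPKM + 1) values over the 10 mice after centring each gene. Thbs4 was nearest to Gm13054 (RMS difference 0.38), Cilp (0.40), a cartilage matrix protein, and Nmrk2 (0.59), a kinase of nicotinamide riboside. Gm13054 lies opposite to and overlaps Nppa, the natriuretic peptide gene with 8217 FPKM in nAAC and 121 in sham mice, so its reads may be those of Nppa. Comp was nearest to Ccn5 (0.31), Ccn2 (0.33) and Ltbp2 (0.33), the last a microfibril protein. Thbs1 was nearest to Col5a2 (0.24), Eln (elastin, 0.25) and Col12a1 (0.29). Thbs3 was nearest to 6430548M08Rik (0.0906), Fads3 (0.101) and Prmt2 (0.109). No gene was the nearest of 2 members. These measures describe 10 libraries of 2 groups, and the difference between the groups is part of each profile.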

How the data were processed

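RNA sequencing of the LV gave 1 gene table per mouse, for 5 nAAC and 5 sham mice assigned by their labels. Mouse numbers are those of the sample titles, and the numbers in the names of the deposited tables differ from them for most mice. The authors deposited FPKM, TPM and coverage for each gene, against the mm10 build. In the deposited tables coverage counts reads per base of a gene. The FPKM also takes library depth into account, but its ratio to coverage differed between genes of the same library. The TPM rescales the FPKM to a common total. Aligner, quantifier and strand setting are not given in the sources used here. Read counts were not recovered, so no count model was used. Depth was inferred from the commonest ratio between coverage and FPKM, shared by 15.5% to 17.1% of genes.

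Rows sharing a gene ID (12 to 21 per table) were summed. Coordinates matched GENCODE M21 for 99.3% of shared genes. log2(FPKM + 1) of genes averaging 1 FPKM or more was fitted with limma 3.58.1 (R 4.3.3, empirical Bayes with trend), with p values adjusted by Benjamini-Hochberg over 11867 genes and no covariate. P values measure the spread between mice. Single values and ratios between members were compared by two-sided exact permutation tests (SciPy 1.17.1). In data simulated for this comparison, 192 of 200 genes changed by a log2 value of 1.5 were called, and of 200 changed by 0.7, 107 passed the adjusted p and 3 were called. Coding sequences of all members were aligned together with MAFFT 7.526. For the identity between pairs of genes they were aligned globally in pairs with Biopython 1.88.

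The members, lists and tests were chosen with earlier results of these data known. Named genes were the 5 members, up to 4 called genes per list with the largest absolute log2 FC, the most abundant gene per list, the 3 genes most like each called member, and genes overlapping a member. Exceptions are stated. Alternatives tried were scaling by median ratio or upper quartile, TPM, no filter or a lower one (0.1), a pseudocount of 0.1, a covariate for Xist, a block for the replicate number, removal of length and GC trends, rescaling without mitochondrial genes and leaving out each mouse. Coverage per gigabase was added after the data were seen.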

Additional observations from a re-analysis of the deposited data

Results flagged for a closer look

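Library measures, the levels and shares of the 5 members and the log2 ratios of their pairs were examined for a mouse far from the other 4 of its group. Chance meets this rule in about 1 of 20 groups. Of 48 groups examined 2 were found, where chance would give about 2.4. The estimated depth of nAAC mouse 1 was 6.82 gigabases, with the next highest nAAC library at 5.26, so the gap to its neighbour made up 0.80 of the range of the group. The share of Thbs1 in the summed FPKM of the family was 11.8% in the same mouse and 7.89% in the next highest, a gap of 0.83 of the range. Without this mouse the log2 FC of Thbs1 was 1.59 (limma, adjusted p = 0.000153).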

How the results depend on the processing

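Over 434 values recomputed for the members, their pairs and the partner lists, 399 kept their side of the threshold or, for counts, a like size. Leaving out 1 mouse gave 240 of the 434 values and 231 of the 399. A count was judged by its size alone, whatever the direction of its genes. Of the log2 FCs and differences between members, 0 changed sign. The log2 FC of Thbs3 was 0.97 with coverage per gigabase, 0.85 with length and GC trends removed and 0.97 with upper-quartile scaling, all with an adjusted p below 0.05 in limma, and was called in 18 of 21 alternatives. Thbs1, Thbs4 and Comp were called in all 21. With 1 mouse left out, the log2 FC ran from 1.59 to 1.999 for Thbs1, from -0.78 to -0.60 for Thbs2, from 1.12 to 1.27 for Thbs3, from 4.73 to 5.05 for Thbs4 and from 3.50 to 3.86 for Comp, and the difference of Thbs1 and Thbs3 from 0.43 to 0.77. Genes called over all genes numbered 701, but 1140 with TPM and 1121 with a pseudocount of 0.1. The split of 595 higher and 106 lower became 366 and 208 with median-ratio scaling and 318 and 244 with upper-quartile scaling, since these lower the median of all genes from 0.22 to -0.00 and -0.05.

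The other matricellular list had 7 called, and 5 with upper-quartile scaling or length and GC trends removed. The ATF6 list had 0 called and 1 with TPM, a pseudocount of 0.1 or without mitochondrial genes (0 to 1 with 1 mouse left out). The growth factor list had 4 called, and 2 with length and GC trends removed, median-ratio or upper-quartile scaling. The proteases had 1 called, as higher, but as lower with median-ratio or upper-quartile scaling or length and GC trends removed, and 2 with a pseudocount of 0.1 (0 to 2 with 1 mouse left out). The receptors had 2 called, and 1 with the Xist covariate, coverage, length and GC trends removed, median-ratio or upper-quartile scaling (1 to 2 with 1 mouse left out). The cause was not tested.

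Replicate numbers did not pair the mice: the correlations of deviations between same-numbered libraries were 0.19, -0.10, -0.32, -0.03 and 0.04, and 0 of 5 pairs correlated best with their own number. With the number as a block, limma called 704 genes and the same 4 members. For pairs of members, the block leaves a sign-flip test of 5 differences whose smallest exact p is 0.0625, which all 10 pairs reached. The difference of Thbs1 and Thbs3 was 0.67, and those of the 9 pairs that passed without the block were 2.54 (Thbs1 and Thbs2), -3.04 (Thbs1 and Thbs4), -1.81 (Thbs1 and Comp), -1.88 (Thbs2 and Thbs3), -5.59 (Thbs2 and Thbs4), -4.35 (Thbs2 and Comp), -3.71 (Thbs3 and Thbs4), -2.48 (Thbs3 and Comp) and 1.23 (Thbs4 and Comp).

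Precision is limited by 5 mice per group, by low coverage of Thbs4, Comp, Thbs3 and Thbs1 in sham mice and by values without read counts.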

Other observations

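Itgb3, the integrin chain that pairs with the alpha chain of the vitronectin receptor and binds thrombospondins, had a mean FPKM under 1 and was not tested. Its FPKM was 0.978 ± 0.149 in nAAC mice, from 0.805 to 1.20, and 0.342 ± 0.0917 in sham mice, from 0.263 to 0.468 (SD, n = 5 each). The nAAC mice thus lay wholly above the sham mice, as they did for 18.9% of all genes tested. Itga4 and Itga2, the other receptors of the list that were not tested, had overlapping groups. Itgb3 was named after its values were seen. Gm13986, a gene on the opposite strand whose start lies 674 bases from that of Thbs1, shares no exonic base with it.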
